A study of Mus musculus with 7 samples.

Results

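Serpins are a family of proteins that share a fold, most of which trap serine or cysteine proteases. In the deposited array data of Phf13 knockout and wild type mouse testis, the family was taken as every gene whose symbol starts with Serpin, from probe sets with 1 gene symbol, with each gene represented by the probe set of highest mean over all 7 arrays. This gave 40 genes of 18194 tested, 39 protein-coding genes and the transcribed pseudogene Serpina4-ps1. Of the 40, 16 had a mean log2 signal above the array median signal of 5.05 and 24 lay below it. The boundary fell in a gap: Serpina10 and Serpinb6c, both at 5.21, were the nearest above it, and Serpinb9b (4.61) and Serpind1 (4.51) the nearest below.

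An inhibitory serpin offers an exposed loop as bait, and the protease that cuts it is carried across the molecule and locked in a covalent complex. Some members do not inhibit proteases and serve as hormone carriers or chaperones instead. In the testis, serpins made by Sertoli and interstitial cells meet the proteases that remodel the tubule wall, release sperm and act in the acrosome, and loss of Serpina5 in mice is known to make males infertile.

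Whole testes were taken at 15 to 20 weeks of age and their total RNA was hybridised, 3 arrays from Phf13 knockout and 4 from wild type animals, and no treatment or further allele is named for either group. Strain, the deleted part of Phf13 and whether each array is a separate animal are not given in the sources used here, so the spread behind every p-value here is that between arrays and could be technical in part. Phf13, which encodes a reader of methylated histone H3, had a log2 signal of 5.71 to 6.04 in knockout and 8.54 to 8.73 in wild type arrays (log2 fold change -2.78, SE 0.09, limma adjusted p = 8.76e-06). Array medians lay between 5.01 and 5.08. Genes of spermatocytes and round spermatids (13 of 13), elongating spermatids (10 of 10), Sertoli cells (19 of 19) and Leydig cells (10 of 10) lay above the array median signal. Arrays whose titles open with the same digits fall into 3 groups that each hold both genotypes, called title-number groups here because the meaning of the number is not stated. With these groups as a block 4 Serpin genes passed, all but Serpinb9, and 2317 of all genes (12.7%).

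In knockout testis 5 Serpin genes rose: Serpina5, Serping1, Serpini1, Serpina3a and Serpinb9. None fell, and 35 did not pass the test (limma without a block, Benjamini-Hochberg adjusted p under 0.05 over all tested genes). Over all tested genes 16.1% passed, 9.07% upward and 7.05% downward, so 5 of 40 (12.5%) was near the background for the family as a whole. In whole tissue, a change in the number of cells of a type and in RNA per cell cannot be told apart. All 5 lay among the 16 members above the array median signal (31.3% of these, against 22.0% of all tested genes above it, 12.3% upward and 9.66% downward). Among the 24 dimmer members 0 passed, where 3.14% of all dim genes did (1.9% upward and 1.24% downward). At an unadjusted p under 0.05 the family had 8 higher and 2 lower genes. In the exact two-sided permutation test over the 35 divisions of the arrays 5 higher and 1 lower member reached 0.0286, the smallest p those divisions allow. The 5 higher ones were not the same 5 as in limma: Serpinf1 was among them and Serpina3a (exact permutation p = 0.0571) was not. The lower one was Serpina10. For the unadjusted and permutation counts the share over all tested genes was not computed. The median log2 fold change was 0.16 over the 16 brighter members and -0.0054 over the 24 dimmer ones, against -0.045 over all genes. For 8 members the arrays of the genotypes were fully separated, 7 upward and 1 downward, all among the brighter 16. Such separation was seen in 28.0% of all tested genes (12.8% upward), in 37.1% of those above the array median signal (17.1% upward) and in 7.64% of those below it (3.19% upward). A positive fold change was found for 21 of 40 members (40.1% of all genes), 11 of the 16 brighter (41.9%) and 10 of the 24 dimmer (36.0%).

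**Figure D1:**
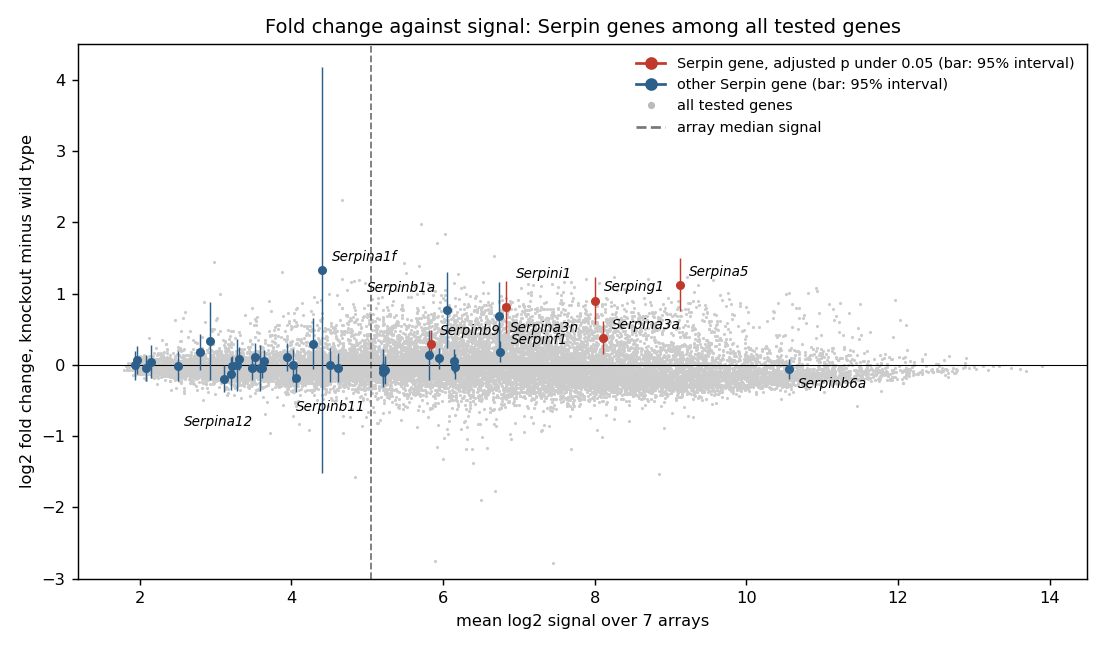
Log2 fold change (knockout minus wild type, vertical axis) against the mean log2 signal over 7 arrays (horizontal axis) for all 18194 tested genes (grey) and the 40 Serpin genes (coloured, bars are 95% intervals of the limma fit). The 5 genes past the threshold (red) lie to the right of the array median signal (dashed), and the interval of Serpina1f is far wider than that of any other member.

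The largest rise was that of Serpina5, the protein C inhibitor, which acts on activated protein C, plasminogen activators and the sperm protease acrosin. The knockout arrays read 9.85, 9.47 and 9.98 on the log2 scale, while wild type arrays read 8.62, 8.28, 8.84 and 8.83. The lowest knockout array thus stood above the highest wild type array. On average it was higher by 1.12 on the log2 scale (SE 0.16; limma adjusted p = 0.0116), or 2.18-fold, with values of 1.23, 0.91 and 1.15 when each title-number group was taken alone. Without knockout 3 the adjusted p was 0.0505 at a log2 fold change of 1.02, and in the other 6 runs with 1 array left out the gene stayed past the threshold. In mean signal Serpina5 was the second brightest member, at percentile 86.6 of all tested genes.

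Serpina3a, of the antichymotrypsin-like subfamily that mice expanded, is the next gene after Serpina5 on chromosome 12 in the RefSeq table of GRCm38.p6, with 0 genes between them. Its signals were 8.19, 8.45 and 8.36 in knockout and 7.81, 7.82, 8.14 and 8.03 in wild type arrays, which did not overlap although knockout 1 and wild type 3 lay close together. Knockout exceeded wild type by 0.38 (SE 0.10; limma adjusted p = 0.0397; exact permutation p = 0.0571). It was positive within each title-number group (0.38, 0.47 and 0.33), but the gene stayed past the threshold in only 1 of the 7 runs with an array left out (wild type 3), with a highest adjusted p of 0.116 without knockout 3. With the replicate number of the labels as a block the limma adjusted p was 0.0509. Wild type 4 has no partner of its replicate number, so this block leaves it out of the genotype contrast. Of the 13 members on chromosome 12, which lie in a run of Serpina genes, these neighbours were the brightest and were the 2 that passed the test. Serpina4-ps1, directly on the other side of Serpina5, had a mean signal of 3.49 and a log2 fold change of -0.05 (SE 0.07).

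Promoters were available for 4 of the 5 genes that rose, and 34 of the 40 members, in a RefSeq table of 250 bases before to 50 bases after each gene's start. They are shown because these genes passed the test in 1 direction and because Serpina5 and Serpina3a are neighbours. On GRCm38.p6, all on the plus strand, they span chr12:104100863-104101162 for Serpina5, chr3:75557243-75557542 for Serpini1, chr12:104112474-104112773 for Serpina3a and chr13:33004291-33004590 for Serpinb9. Capitals mark every match, on either strand, to 6 motifs: AGAACA, a hexamer of androgen response elements; AAGGTCA, bound by NR5A1; TTCNNNGAA, bound by STAT proteins; TATAAA, the TATA box; CCAAT; and GGGCGG, the GC box.
Serpina5: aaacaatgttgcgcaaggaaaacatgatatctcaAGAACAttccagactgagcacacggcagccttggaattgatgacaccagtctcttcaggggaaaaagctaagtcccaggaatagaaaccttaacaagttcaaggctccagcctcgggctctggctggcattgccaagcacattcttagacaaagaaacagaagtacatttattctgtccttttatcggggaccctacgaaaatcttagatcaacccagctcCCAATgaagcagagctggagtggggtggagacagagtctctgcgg
Serpini1: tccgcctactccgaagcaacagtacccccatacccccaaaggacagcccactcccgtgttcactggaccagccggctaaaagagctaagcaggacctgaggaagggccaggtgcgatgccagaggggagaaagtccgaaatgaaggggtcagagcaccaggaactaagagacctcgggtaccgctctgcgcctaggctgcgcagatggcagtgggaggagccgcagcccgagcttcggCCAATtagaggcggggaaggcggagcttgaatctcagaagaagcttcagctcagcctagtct
Serpina3a: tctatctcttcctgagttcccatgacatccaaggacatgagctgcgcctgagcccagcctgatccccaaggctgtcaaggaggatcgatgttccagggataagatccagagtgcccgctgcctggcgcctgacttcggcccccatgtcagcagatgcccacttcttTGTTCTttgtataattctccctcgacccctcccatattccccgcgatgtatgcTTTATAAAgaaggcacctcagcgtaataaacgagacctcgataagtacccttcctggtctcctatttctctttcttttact
Serpinb9: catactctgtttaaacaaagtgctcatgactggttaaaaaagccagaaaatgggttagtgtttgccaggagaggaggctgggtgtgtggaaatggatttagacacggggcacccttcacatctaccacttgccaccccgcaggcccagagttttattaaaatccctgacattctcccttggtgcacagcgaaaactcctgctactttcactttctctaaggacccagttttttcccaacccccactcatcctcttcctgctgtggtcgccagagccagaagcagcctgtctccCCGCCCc

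The Serpina5 promoter held AGAACA starting 216 bases before the gene's start and CCAAT 6 bases into the transcript. The Serpina3a promoter held the same hexamer on the opposite strand, TGTTCT, 84 bases before the start, and TATAAA 29 bases before it, where TATA boxes usually sit; TTTATA, its match on the opposite strand, overlaps it. The Serpini1 promoter held CCAAT 12 bases before the start and was richer in G and C (60.0%, with 15 CpG sites) than Serpina5 (47.3%, 6 sites), against a median of 52.7% and 7 sites over all promoters. Serpinb9 held the GC box, as CCGCCC, 44 bases into the transcript. Of all 32851 promoters in the table, 19.0% held the androgen element hexamer, 13.6% the TATA box, 37.4% CCAAT and 35.7% the GC box. Among the 34 Serpin genes with a promoter entry the shares were 38.2%, 23.5%, 41.2% and 20.6%, in the same order. There a gene was counted if any of its promoters held the motif. The androgen element hexamer was thus found in 13 of the 34, most of which did not pass the test. AAGGTCA (4.72% of all promoters) and TTCNNNGAA (8.3%) were in none of the 4 windows.

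Serping1 encodes the C1 inhibitor, which blocks the complement proteases C1r and C1s as well as plasma kallikrein. Its log2 signals were 8.49, 8.28 and 8.79 in knockout and 7.65, 7.35, 7.63 and 7.84 in wild type arrays, with every knockout array higher than every wild type array. With a log2 fold change of 0.90 (SE 0.14; limma adjusted p = 0.0121) the gene was 1.87-fold higher. Values of 0.84, 0.79 and 0.95 within the title-number groups were close to one another. The adjusted p without knockout 3 was 0.0505, and the gene stayed past the threshold in the other 6 runs. Serping1 is expressed by fibroblasts, macrophages and other interstitial cells.

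Both C1 protease genes, C1s1 and C1ra, rose too. Of 10 measured genes of complement C1, the lectin pathway and neighbouring steps, 5 rose (with C1qa, C1qc and C2) and 0 fell, with a median log2 fold change of 0.40. Of the 10, 7 lay above the array median signal, where 12.3% of all tested genes rose and 9.66% fell. C1s1, a catalytic subunit of C1, rose by 0.65 (SE 0.14, adjusted p = 0.0233), from 5.74 ± 0.25 (SD, n = 4) to 6.38 ± 0.18 (SD, n = 3) on the log2 scale. C1ra, its activator, rose by 0.68 (SE 0.16), and C1qc, a chain of the recognition subunit made by macrophages, by 0.82 (SE 0.21). Other targets of Serping1 did not pass: the lectin pathway protease genes Masp1 and Masp2 had -0.02 and -0.06, and Klkb1, plasma kallikrein, had -0.22 (SE 0.09, limma adjusted p = 0.120). With 1 array left out, between 0 and 5 genes of this list rose, and the median ran from 0.26 to 0.48.

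Serpini1, neuroserpin, inhibits tissue plasminogen activator and is best known from neurons. Its brighter probe set gave log2 signals of 7.69, 7.28 and 6.90 in knockout and 6.41, 6.58, 6.43 and 6.49 in wild type arrays. The wild type arrays kept within 0.17 of one another while the knockout arrays spread over 0.79, all of them above wild type. On average they were higher by 0.81 (SE 0.16; limma adjusted p = 0.0175), and by 1.28, 0.78 and 0.41 in title-number groups 1, 2 and 3. Serpini1 was the single member still past the threshold without knockout 3. Without wild type 1 its adjusted p was 0.0557. A second probe set gave the same direction, 0.53 (SE 0.12, adjusted p = 0.0276 over all probe sets with 1 symbol), and the dimmest, at a mean of 1.90 near the floor of the arrays, gave -0.02.

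**Figure D2:**
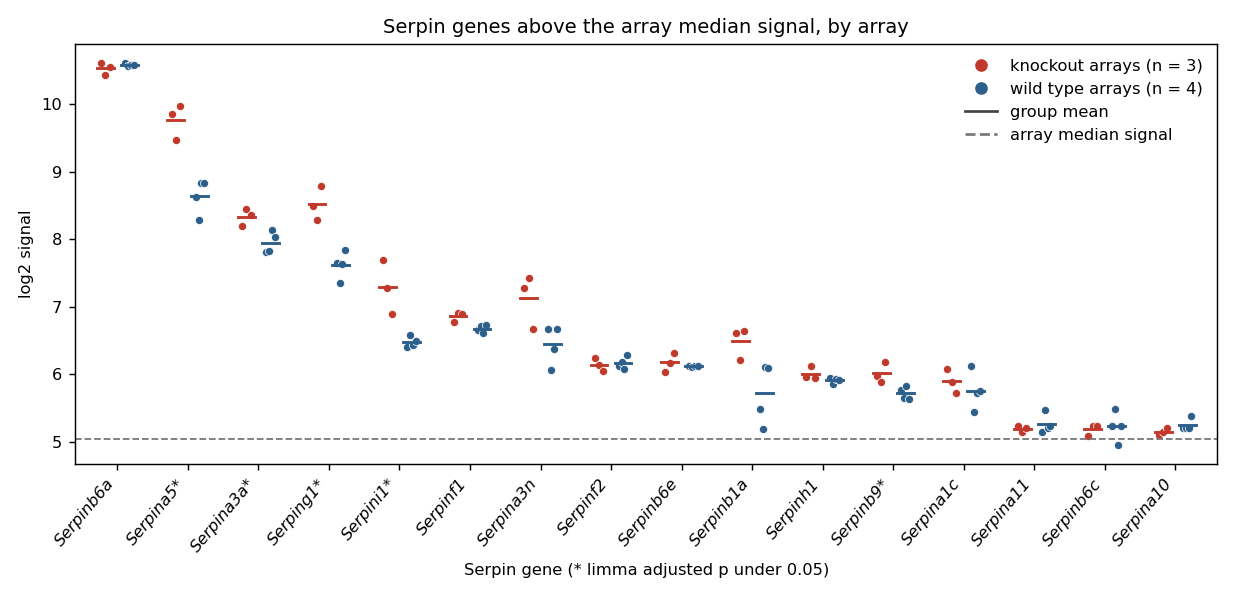
Log2 signal on each array for the 16 Serpin genes above the array median signal (dashed line), ordered by mean signal, with knockout arrays in red (n = 3), wild type arrays in blue (n = 4) and short lines at the group means. Serpina5, Serping1 and Serpini1 show the clearest separation, Serpinb6a, the brightest member, shows none, and for Serpina3n knockout 3 falls at the level of the highest wild type arrays.

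Genes of plasminogen activation, the system that Serpina5, Serpini1 and Serpinf2 bear on, mostly did not pass. Of 21 measured, 4 rose and 0 fell, and the median log2 fold change was -0.0083. Over all tested genes 9.07% rose and 7.05% fell, and 9 of the 21 lay above the array median signal. S100a10, a plasminogen receptor subunit, rose by 0.56 (SE 0.09), the membrane metalloprotease gene Mmp14 by 0.67 (SE 0.13) and the lipoprotein receptor gene Lrp8 by 0.27 (SE 0.07). With 1 array left out, 0 to 4 genes of this list rose and 0 to 1 fell. Of 24 genes of coagulation and the protein C pathway, 5 rose, 1 fell and 18 did not pass (median -0.045). With 1 array left out, 0 to 5 rose and 0 to 2 fell. Of the 24, 9 lay above the array median signal, and the shares over all tested genes were 9.07% upward and 7.05% downward. Here Proc, the zymogen of the protease that Serpina5 is named for, had a log2 fold change of -0.46 and fell (SE 0.10; limma adjusted p = 0.0202), while Pros1, which encodes its cofactor protein S, rose by 0.58 (SE 0.10) and Gas6 by 0.52 (SE 0.08).

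Among the intracellular clade B serpins, Serpinb9, the granzyme B inhibitor, passed the test by a narrow margin. Its log2 signals were 5.98, 5.89 and 6.18 in knockout and 5.77, 5.65, 5.82 and 5.64 in wild type arrays, without overlap but with 0.07 between knockout 2 and wild type 3. Its fold change was 0.30 on the log2 scale (SE 0.09; limma adjusted p = 0.0497). The call ended under 15 of the 16 refitted alternatives that tested it, among them quantile normalization (adjusted p = 0.0691), the title-number groups as a block (0.0927) and the replicate block (0.0709), and its adjusted p with 1 array left out ran from 0.0431 without knockout 2 to 0.147 without knockout 3. Its second, dim probe set gave 0.16 (SE 0.08). Over all 18 clade B genes, which sit in clusters on chromosomes 1 and 13, 5 lay above the array median signal and the median log2 fold change was -0.01.

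Serpinb1a, which inhibits neutrophil elastase and related proteases, had signals of 6.61, 6.21 and 6.64 in knockout and 5.49, 5.19, 6.11 and 6.09 in wild type arrays. The wild type arrays split, with wild type 1 and 2 far below wild type 3 and 4, and the knockout arrays lay above all 4. The log2 fold change of 0.77 (SE 0.23) did not pass (limma adjusted p = 0.0567). It passed with its probe sets averaged (limma adjusted p = 0.0267), with trend and robust settings (0.0468) and without wild type 3 (0.0443). Serpinb1a also passed without wild type 4 (0.0499) and with the replicate block (log2 fold change 0.89, adjusted p = 0.0145). Those last settings are not separate, as the replicate block leaves wild type 4 out of the contrast and both gave 0.89. With the title-number block the gene did not pass (0.0839). Its second probe set, dim at a mean of 3.39, gave 0.35 (SE 0.12). Of 22 measured genes of granzymes and of granule proteins of killer, neutrophil and mast cells, which hold targets of both serpins but also other proteins such as perforin (Prf1) and carboxypeptidase (Cpa3), 0 rose and 0 fell in limma (median -0.086; 0 higher and 2 lower at an unadjusted p under 0.05), and only 4 lay above the array median signal.

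Serpina3n, an acute-phase serpin and inhibitor of granzyme B and cathepsin G, was uneven between arrays. Its signals were 7.28, 7.43 and 6.67 in knockout and 6.67, 6.06, 6.37 and 6.67 in wild type arrays, so knockout 1 and 2 were high while knockout 3 equalled wild type 1 and 4. The log2 fold change was 0.68 (SE 0.21) and did not pass (limma adjusted p = 0.0566). Title-number groups 1, 2 and 3 gave 0.61, 1.22 and 0. It passed with trend and robust settings (adjusted p = 0.0421) and without the dimmest 50% of genes (0.0295). Its near relatives share sequence, so signals of this subfamily may include more than 1 transcript.

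The probe sets of Serpinf1 disagreed in size. This gene encodes PEDF, a secreted serpin that does not inhibit proteases and is known for restraining blood vessel growth. The probe set of highest mean gave 6.78, 6.91 and 6.90 in knockout and 6.65, 6.72, 6.61 and 6.73 in wild type arrays, which did not overlap, and a log2 fold change of 0.19 (SE 0.06) that did not pass (limma adjusted p = 0.0818). The other gave 6.35, 6.72 and 6.86 in knockout and 5.81, 5.60, 6.22 and 6.16 in wild type arrays, again without overlap, and a log2 fold change of 0.70 (SE 0.17) that passed when every probe set was tested (adjusted p = 0.0387). With all probe sets of a gene averaged, Serpinf1 passed (0.44, limma adjusted p = 0.0267). The probe set of highest mean passed as well without the dimmest 50% of genes (adjusted p = 0.0483). The call of this gene thus depends on the probe set that stands for it and on the filter. The mean signals of the 2 probe sets were 6.76 and 6.25; which transcripts each detects was not tested.

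**Figure D3:**
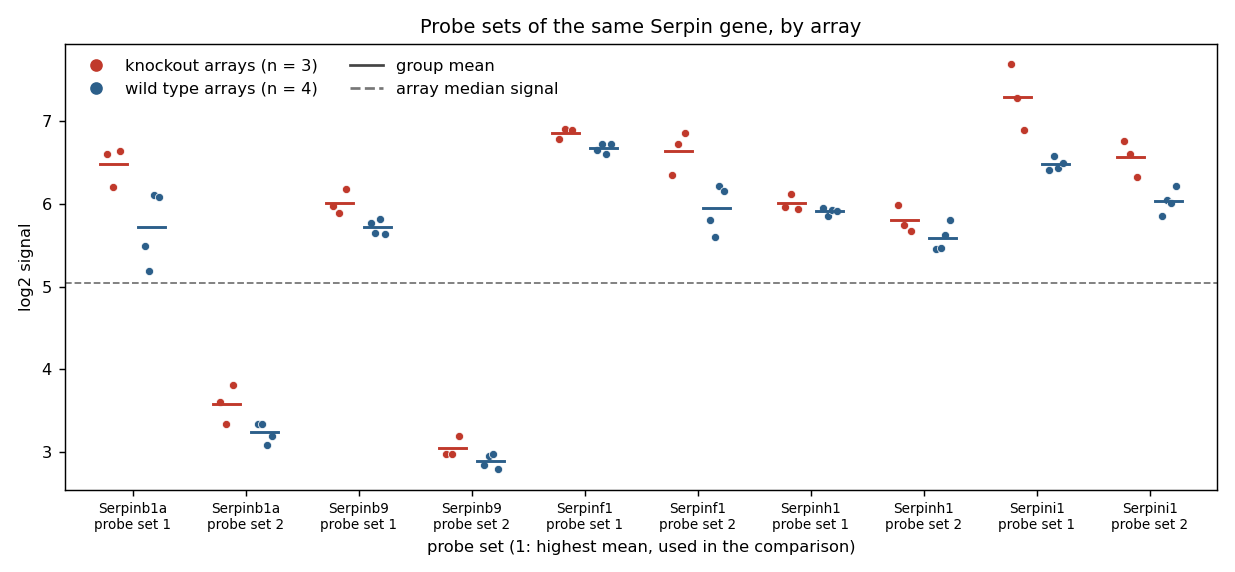
Log2 signal on each array for probe sets of the same gene (10 probe sets of 5 Serpin genes, without the dimmest probe set of Serpini1; probe set 1 has the highest mean and was used in the comparison), with knockout arrays in red (n = 3), wild type arrays in blue (n = 4) and lines at the group means. The knockout mean exceeds the wild type mean in every pair of groups drawn, by 0.19 and 0.70 for the probe sets of Serpinf1.

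Serpinh1 encodes HSP47, the collagen chaperone of the endoplasmic reticulum. It gave 5.96, 6.12 and 5.94 in knockout and 5.95, 5.86, 5.93 and 5.92 in wild type arrays, with groups that overlapped, and a log2 fold change of 0.09 (SE 0.07, limma adjusted p = 0.359, 95% interval -0.06 to 0.24). Its second probe set, with a mean of 5.68, gave 0.21 (SE 0.11). Of 25 measured genes of collagens and their folding enzymes, 9 rose and 0 fell, with a median of 0.16. Between 0 and 9 rose with 1 array left out. Of the 25, 21 lay above the array median signal, where 12.3% of all tested genes rose and 9.66% fell. Col4a1, a basement membrane chain, rose by 0.44 (SE 0.07), Col6a1 by 0.50 (SE 0.08) and Col1a2, a chain of fibrillar collagen, by 0.66 (SE 0.11). The difference between Serpinh1 and these genes was not tested.

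The brightest member, Serpinb6a, an inhibitor of cathepsin G and other serine proteases inside cells, stood at 10.61, 10.44 and 10.55 in knockout and 10.61, 10.57, 10.58 and 10.58 in wild type arrays. Groups overlapped, and the log2 fold change was -0.05 (SE 0.06) with a 95% interval of -0.19 to 0.09. Serpinf2, antiplasmin, had -0.02 (95% interval -0.20 to 0.15) and Serpinb6e 0.05 (-0.11 to 0.22). Serpina1c, an antitrypsin copy, had 0.14 (-0.21 to 0.49), Serpina11 had -0.07 (-0.26 to 0.13) and Serpinb6c -0.05 (-0.31 to 0.22). Serpina10, the inhibitor of factor X that needs protein Z, was the single member with all knockout arrays (5.10, 5.14 and 5.20) below all wild type arrays (5.21, 5.21, 5.21 and 5.38), by a margin of 0.01. Its log2 fold change of -0.11 (SE 0.07) did not pass (limma adjusted p = 0.302). Antitrypsin, Serpinb6 and Serpinb9 genes have near-identical copies, and 3 further probe sets were annotated to several Serpin genes and left out.

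The 24 members below the array median signal were not shown to lie above background. In 23 of them, all but Serpina1f, every array was below the array median signal, with a highest value of 4.84 on any array. Log2 fold changes of these 23 ran from -0.19 to 0.33, with a median half-width of the 95% interval of 0.20, and 0 passed. The smallest unadjusted p-values were those of Serpina12, vaspin (-0.19, SE 0.08, limma adjusted p = 0.137), Serpinb11 (-0.19, SE 0.08), Serpinb6b (0.30, SE 0.15), Serpina6, corticosteroid-binding globulin (0.18, SE 0.11), Serpinb2, the second plasminogen activator inhibitor (0.33, SE 0.24), and Serpinc1, antithrombin (0.11, SE 0.09). Several of these differences rested on 1 array. Serpinb6b was at 4.84 in knockout 1 and 4.02 to 4.36 on the others, and had 0.10 without it. Knockout 3 stood out for Serpinb2 (3.78, against 2.51 to 2.99) and Serpinc1 (4.23, against 3.89 to 3.90), and each had a log2 fold change of 0.0025 without it. Serpina6 had 0.097 without wild type 3. Serpina7, thyroxine-binding globulin, was the single X-linked member and lay at 1.97. Genes of liver and plasma proteins, where Serpina1, Serpina6, Serpinc1 and Serpind1 are chiefly expressed, were dim too: 4 of 11 lay above the array median signal and 0 rose or fell (limma; 0 higher and 3 lower at an unadjusted p under 0.05).

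Serpina1f, known as epserin from the epididymis, stood apart from the other dim members and was singled out after its values were seen. It was listed at 8.82 in knockout 2 and 5.18 in wild type 3, but at 3.41 and 3.28 in knockout 1 and 3 and at 3.28, 3.35 and 3.56 in wild type 1, 2 and 4. Both genotypes therefore held a high and several low arrays. The log2 fold change of 1.33 (SE 1.25, limma adjusted p = 0.482) was the largest of the family and did not pass. Without knockout 2 it was -0.50. Adam7, a sperm maturation gene of the epididymis, gave 7.07 in knockout 2, 5.20 in wild type 3 and 3.02 to 3.49 on the other 5 arrays. Of 12 measured genes of epididymis, rete testis and seminal vesicle, Adam7 was the one above 4 in knockout 2 and wild type 3 and below 4 on the other 5 arrays. Pax8 had the same order over a much smaller range (3.99 in knockout 2, 3.61 in wild type 3 and 3.38 to 3.53 elsewhere). In the list 0 rose and 1 fell (Defb21, -0.32, SE 0.07). The summed linear signal of that list was 285.5 to 443.5 in knockout and 299.8 to 357.5 in wild type arrays. Its part in the other Serpin results was not tested. Without knockout 2, 4 of the 5 genes that rose stayed past the threshold, all but Serpina3a (0.105), and without wild type 3 also 4, all but Serpinb9 (0.0542).

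**Figure D4:**
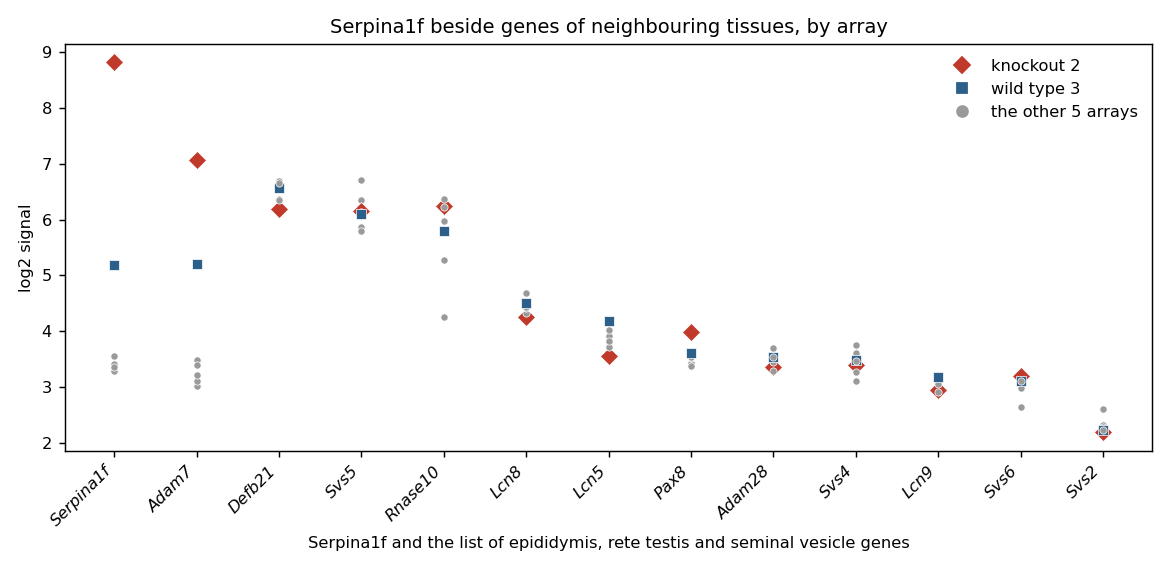
Log2 signal on each array for Serpina1f and for 12 genes of epididymis, rete testis and seminal vesicle, with knockout 2 as red diamonds, wild type 3 as blue squares and the other 5 arrays in grey. Serpina1f and Adam7 share the order knockout 2, wild type 3, then the other arrays, over several log2 units; Pax8 has the same order with values of 3.38 to 3.99.

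Of 17 measured genes of cathepsins, caspases and legumain, 11 rose and 0 fell, with a median log2 fold change of 0.54. Most encode cysteine proteases, some of which serpins inhibit, but Ctsd (0.47) encodes an aspartic protease and Ctsa (0.54) a serine carboxypeptidase, and both are among those that rose. Ctsl, a cathepsin that Sertoli cells secrete, rose by 0.63 (SE 0.08, adjusted p = 0.0116) from 11.77 ± 0.14 (SD, n = 4) to 12.39 ± 0.04 (SD, n = 3), Ctsb by 0.78 (SE 0.12) and the caspase gene Casp6 by 0.55 (SE 0.08). With 1 array left out, 3 to 11 of the 17 rose. In this list 16 of the 17 lay above the array median signal, where 12.3% of all tested genes rose and 9.66% fell. Genes of serine proteases of testis and sperm, with the acrosin-binding protein gene Acrbp, were mixed. Among 24 on the arrays, 3 were higher, 6 were lower and 15 missed the threshold (median -0.24). With 1 array left out, 0 to 3 rose and 0 to 7 fell. Of the 24, 22 lay above the array median signal, with the same background shares of 12.3% upward and 9.66% downward. The sperm protease genes Prss40 and Prss44 fell by 0.56 (SE 0.09) and 0.40 (SE 0.07), while the kallikrein gene Klk1b27 rose by 1.09 (SE 0.24); the other 2 that rose, Klk1 and Klk1b21, are kallikreins too.

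Other families of protease inhibitors also held genes that rose. Among 42 on the arrays, 11 were higher, 0 lower and 31 missed the threshold, with a median of 0.04. With 1 array left out, 3 to 10 rose. Over all tested genes 9.07% rose and 7.05% fell, and 23 of the 42 lay above the array median signal. The cystatin gene Cst12 rose by 0.73 (SE 0.09), Eppin, an inhibitor found on sperm and in Sertoli cells, by 0.85 (SE 0.11) and the metalloprotease inhibitor gene Timp1 by 0.58 (SE 0.08). Agt, angiotensinogen, has the serpin fold but another symbol and so fell outside the family as taken here. It rose by 0.87 (SE 0.15, limma adjusted p = 0.0132), from 9.87, 9.92, 10.08 and 10.33 in wild type to 10.73, 10.80 and 11.22 in knockout arrays.

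Markers of several somatic testis cell types were also higher in knockout testis. Whether they follow the Serpin genes from array to array was not tested. Of 19 Sertoli cell markers 17 rose, and their summed linear signal was 25561.5 to 27847.8 in knockout and 15321.6 to 19982.3 in wild type arrays. Of 10 Leydig cell markers 6 rose (8590.7 to 10717.9 against 4503.6 to 6430.3), of 12 macrophage markers 7 (1512.1 to 2445.0 against 1057.3 to 1396.1) and of 10 peritubular and smooth muscle markers 4 (3355.8 to 3617.6 against 2418.8 to 2745.8). None of these ranges overlapped between genotypes. Summed signals of the germ cell markers did not overlap either, and were lower in knockout. For spermatocytes and round spermatids 5 of 13 markers fell (28620.7 to 30899.3 against 31121.3 to 32176.8). For elongating spermatids 3 of 10 fell (69632.7 to 70745.7 against 71710.3 to 75903.6). Among all tested genes above the array median signal 12.3% rose and 9.66% fell. The marker lists share genes with the lists above, so their counts are not separate observations. Cst9, Cst12 and Ctsl are also counted as Sertoli cell markers, and Ctss, C1qa, C1qb and C1qc as macrophage markers. The part of cell makeup in the Serpin results was not tested. Endothelial markers (0 of 10 rose, 1 fell) and those of T, NK and mast cells (0 of 13 rose or fell; limma, 1 higher and 3 lower at an unadjusted p under 0.05) are given for comparison.

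**Figure D5:**
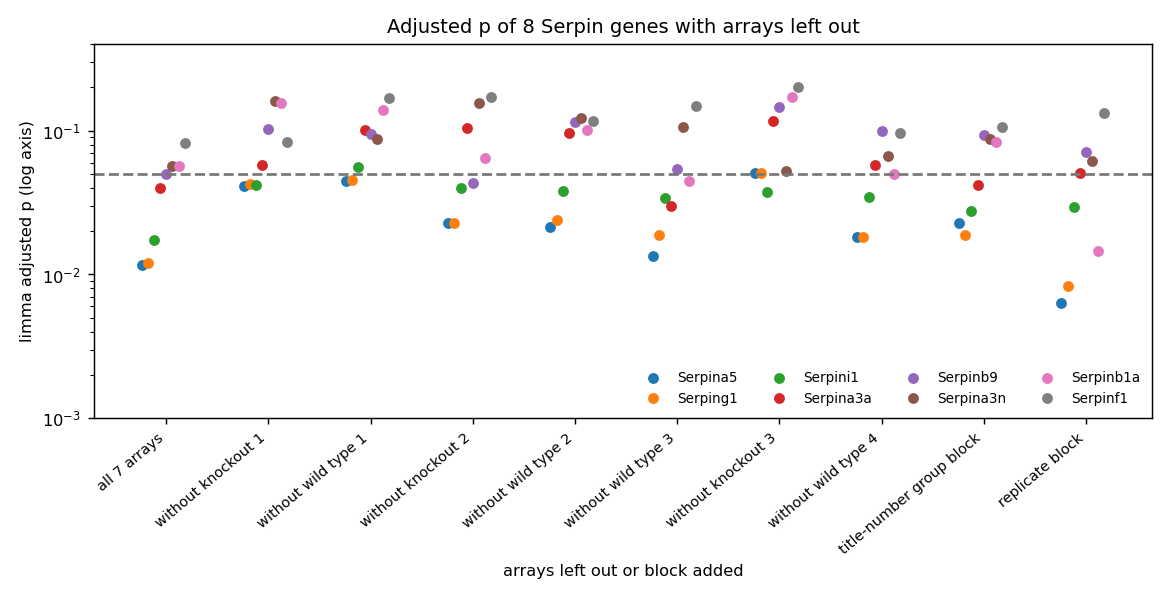
Limma adjusted p (log axis) of the 8 brighter Serpin genes with an unadjusted p under 0.05, with all 7 arrays, with each array left out in turn and with each block added; the dashed line is the threshold of 0.05. Serpina5, Serping1 and Serpini1 stay at or below the line in nearly all settings, reaching 0.0505 (Serpina5 and Serping1 without knockout 3) and 0.0557 (Serpini1 without wild type 1), and the other 5 genes cross it or stay above.

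The count of 5 rested in part on single arrays. Without knockout 3 only Serpini1 passed, as the share of all tested genes that passed fell from 16.1% to 0.962%, and without wild type 1 only Serpina5 and Serping1 passed (4.07% of all genes). Without knockout 1 and without wild type 2 the same 3 genes passed, Serpina5, Serping1 and Serpini1. Without both knockout 3 and wild type 4, 0 members passed in limma, with 4 of all 18194 genes past the threshold. In this last setting Serpina5 still had a log2 fold change of 1.08 and Serpini1 of 1.01.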

How the data were processed

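Total RNA from whole mouse testis was hybridised as biotin-labelled cRNA to 1-colour Affymetrix arrays, 3 for Phf13 knockout and 4 for wild type, per the labels' protocols. The authors deposited log2 signals of 45101 probe sets, made with Affymetrix Expression Console 1.4.1 per the submitters' processing notes. The summarisation method and background correction are not given in the sources used here, and no detection calls were used. Probe sets with 1 gene symbol (34958) were kept; 932 with several and 9211 with none were left out, and each of the 18194 genes was represented by its probe set of highest mean. Knockout was compared with wild type in limma 3.58.1 (R 4.3.3; lmFit, eBayes) with Benjamini-Hochberg adjustment over all genes and a threshold of 0.05, on the deposited log2 values without further normalization. The fit was tested on simulated data with independent noise for each array. That simulation left out the deviations shared within title-number groups, so it cannot speak to the lack of a block. Single genes also had an exact two-sided permutation test. Named were every Serpin gene past the threshold or above the array median signal, the 6 dim ones of smallest p, those next to the boundary, Phf13, and up to 3 genes of smallest p per protease list; Serpina1f, Adam7, Defb21, Agt, Serpina4-ps1, Serpina7, Klk1, Klk1b21, Pax8, Masp1, Masp2, Klkb1, C1qa, C2, Ctsd, Ctsa, Prf1, Cpa3 and Acrbp were named after their values were seen. The members and gene lists were chosen with earlier results of these data known. With 7 arrays the precision is limited, and the median SE of a log2 fold change over genes was 0.0843. Within the title-number groups, the 4 pairs of a knockout and a wild type array deviated from their group means together (r = 0.182, 0.103, 0.164 and 0.319). The highest r of any other pair was 0.0227. Deviations cancel out within each genotype, so a high r of a pair lowers that of others and these values are not independent. Whether the groups pair the arrays was not tested, and the labels do not say what they are. The comparison has no block, although the arrays may be paired. For Serpin genes the blocked values are given where they change a call. Counts in the gene lists and among the markers come from the unblocked fit alone. Alternatives were other scalings, filters, probe set rules, blocks and each array left out.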

Additional observations from a re-analysis of the deposited data

Results flagged for a closer look

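In 10 of the 40 Serpin genes 1 wild type array stood apart from the other 3, with a gap to its neighbour, divided by the group's range, above Dixon's 95% critical value for 4 samples. Chance gives about 1 in 20 such groups, and deposited values have 2 decimals, so ties raise the ratio; groups of 3 were not tested. The ratio was 0.853 for Serpina1f (wild type 3 at 5.18, next 3.56) and 1.0 for Serpina10 (wild type 4 at 5.38, next 5.21), the one such gene above the array median signal. The other 8 are dim. Wild type 1 stood apart in Serpina9 (ratio 0.95), Serpina1b (0.841) and Serpina4-ps1 (1.0). Wild type 2 did so in Serpinc1 (1.0), Serpinb12 (0.929), Serpinb9d (1.0) and Serpinb9c (0.909), and wild type 4 in Serpina3i (0.889).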

How the results depend on the processing

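No Serpin gene that passed changed direction under any alternative run. With 1 array left out, 1 to 5 Serpin genes rose, against 5 with all arrays; over all tested genes 96 to 1524 rose (1651 with all arrays), 79 to 1210 fell (1283), and 175 to 2574 passed in all (2934). The median log2 fold change ran from 0.14 to 0.22 for brighter and from -0.027 to 0.042 for dimmer members. Without knockout 3 and wild type 4, 0 Serpin genes rose in limma, with 1 gene higher, 3 lower and 4 in all among tested genes. The title-number block, whose pairs had the highest correlations of deviations, gave 4 Serpin genes, all shared, and 2317 genes in all. Of the Serpin calls it ended that of Serpinb9. Replicates 1 and 2 are paired alike by replicate number and by title-number group (correlations of deviations 0.182 and 0.103), while replicate 3 gave -0.143. With the replicate block 4 Serpin genes rose, 3 of them shared, and 2294 genes passed, 660 of them lower. That block leaves wild type 4, which has no partner of its replicate number, out of the contrast. The median of brighter members was 0.10 after quantile normalization, 0.68 without the dimmest 50% of genes or with the tested-gene median as boundary, and 0.235 and 0.095 within title-number groups 2 and 3. Centring arrays on their medians gave 1549 higher and 1680 lower genes, and leaving out the dimmest 50% gave 1529 and 1736. Dim members were not shown to lie above background, and the part of signal level in their results was not tested.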

Other observations

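The order seen for Serpina1f, highest in knockout 2, then wild type 3, recurred in other genes, which were chosen by their values. In all, 10 genes lay more than 2 log2 units above the highest of the other 5 arrays in knockout 2 and more than 1 unit above it in wild type 3. Spink8, of the Kazal-type protease inhibitors, was at 10.54 in knockout 2, 7.94 in wild type 3 and at most 4.28 elsewhere. Cd52 had 10.62, 7.63 and at most 5.12, and Cuzd1 10.62, 8.45 and at most 6.29. The protease inhibitor genes Wfdc15b (9.31, 6.42 and at most 4.35) and Spink10 (8, 4.62 and at most 3) showed it as well, as did Ly6f, Adam7, Defb42 and Gm4988.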
